A study of Mus musculus with 6 samples.

Results

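Long noncoding RNA (lncRNA) genes make transcripts that are not translated into protein. They were examined in RAW264.7, a mouse macrophage-like line grown in culture. Members were chosen by biotype and by summed count, not by the difference between groups. A gene belonged to the set when the deposited table gave it the biotype lincRNA, antisense, sense_intronic, processed_transcript or bidirectional_promoter_lncRNA and at least 300 counts summed over the 6 libraries. Of 54532 genes in the table, 9650 carried such a biotype, 6491 of these had no count, and 190 met the minimum. The set holds 82 lincRNA, 57 processed_transcript, 37 antisense, 9 bidirectional_promoter_lncRNA and 5 sense_intronic genes. The 2 groups were 3 libraries labelled ERMAP_shRNA, with genotype ERMAP Knockdown and treatment shRNA, and 3 libraries labelled RAW with genotype WT, called control here. The treatment text names an ERMAP shRNA lentivirus for all 6 samples, so the labels do not settle whether the controls were transduced, and no non-targeting shRNA is described. Whether replicates came from separate cultures is not in the labels, and the p-values then reflect library-to-library spread that may be technical.

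LncRNAs act in several ways. Some hold nuclear bodies together, some silence or activate neighbouring genes in cis, and many are spliced host transcripts whose introns release small nucleolar RNAs or microRNAs. Macrophages switch on particular lncRNAs when they meet microbial products or interferons, and many of these lie beside protein-coding genes of the same response. Many lncRNAs are therefore described with the nearest protein-coding gene, taken as the one with the smallest distance between gene starts on the same chromosome. In these distances between genes, the start is the lower coordinate of the gene. For a gene on the minus strand that is its downstream end, not the start of transcription.

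Summed counts were 13447021 to 15116705 in the ERMAP shRNA libraries and 14478988 to 16602734 in the control libraries. Ermap, the gene named by the shRNA label, had 10, 21 and 14 counts in the ERMAP shRNA libraries and 12, 12 and 3 counts in the control libraries (log2 fold change 0.81, SE 0.52, edgeR adjusted p = 0.929), so the label was not matched by a lower Ermap mRNA, and directions are given for libraries that carry the ERMAP shRNA label. Control replicate 1 stood apart: mitochondrial transcripts took 3.69% of its counts, against 1.71% to 2.18% in the ERMAP shRNA libraries and 1.87% to 1.89% in the other control libraries. Macrophage markers summed to 6186 to 6288 CPM (counts scaled to library size with TMM factors) in the ERMAP shRNA libraries and 6148 to 6429 CPM in the control libraries, with Mertk at 0 of 7 genes. The 4 T cell markers were all at 0, and the lists for B cells, neutrophils, fibroblasts, epithelium and erythroid cells reached no more than 0.399 CPM in any library, with 13 of these 20 genes at 0.

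The sequences shown are the promoters of Gm20559, the only one of the 190 genes that passed the test over all genes, and of its nearest protein-coding gene Samd9l, because these stretches are copies of each other. Gm20559 (ENSMUSG00000106734, processed_transcript) lies on the minus strand at chr6:3333194-3346128 in mm10, and Samd9l (ENSMUSG00000047735) on the same strand at chr6:3372257-3399572. The windows come from RefSeq (GRCm38.p6) and run 5′ to 3′ on the minus strand, at chr6:3346092-3346391 for Gm20559 (250 bases before and 50 after the start) and at chr6:3399572-3399821 for Samd9l (250 bases before the start). RefSeq holds 3 promoter windows for Gm20559, of which only the first listed is shown and aligned here. Capitals mark bases that differ between the aligned windows.
Gm20559: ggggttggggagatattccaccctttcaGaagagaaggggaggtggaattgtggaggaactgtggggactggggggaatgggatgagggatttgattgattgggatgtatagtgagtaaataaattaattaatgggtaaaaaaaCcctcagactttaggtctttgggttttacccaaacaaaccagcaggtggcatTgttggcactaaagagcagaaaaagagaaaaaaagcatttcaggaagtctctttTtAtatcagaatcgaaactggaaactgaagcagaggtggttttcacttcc
Samd9l: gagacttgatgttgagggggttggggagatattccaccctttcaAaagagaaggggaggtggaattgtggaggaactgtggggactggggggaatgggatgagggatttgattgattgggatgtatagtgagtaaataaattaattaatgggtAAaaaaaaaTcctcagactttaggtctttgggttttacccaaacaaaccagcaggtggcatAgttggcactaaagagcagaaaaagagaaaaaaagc
Over the full 300-base windows, 282 bases could be aligned, and 277 of these (98.2%) were identical, with 5 substitutions and 2 gap positions. The likeness runs on into the transcripts. Each of the 6 GENCODE vM21 transcripts of Gm20559 matched a Samd9l transcript over its 5′ end, along 198 to 277 bases at 93.9% to 95.1% identity, while that Samd9l transcript is 5330 bases long. Reads from this shared stretch could have been assigned to either gene, and how the authors' counting treated them is not given in the sources used here.

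Over the full 300 bases, neither window held GAAA, any 2 bases and GAAA again on either strand, a spelling of the interferon-stimulated response element, which 3.44% of the 32851 RefSeq promoter windows of the mouse hold. Neither held TTCNNNGAA, the GAS element of STAT factors, which 8.30% of all windows hold. Both held GAAA, any 3 bases and GAAA again, a wider form that was searched after the sequences had been read. It starts 14 bases into the Gm20559 transcript and 32 bases into that of Samd9l, past the end of the Samd9l stretch printed, and 2.75% of all windows hold it. Promoter windows were matched by symbol for 108 of the 190 lncRNA genes. Of these 108, 3 held the form with 2 bases between (Gm33370, Rab10os and Ptgs2os2) and 6 the form with 3, with log2 fold changes from -0.13 to 0.14 in those 3 and from -0.80 to 1.28 in those 6. A match is a run of letters and does not show that a factor binds there.

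Gm20559 was higher in the ERMAP shRNA libraries, and so was Gm43197, a transcript annotated inside it. Gm20559 had 277, 292 and 323 counts in the ERMAP shRNA libraries and 156, 126 and 107 counts in the control libraries. Scaled to library size these were 20.7, 19.4 and 21.5 CPM in the ERMAP shRNA libraries and 10.8, 7.59 and 7.06 CPM in the control libraries. All ERMAP shRNA values lay above all control values, and control replicate 1 was the highest of the controls. Gm20559 rose by a log2 fold change of 1.28 (SE 0.18, 95% interval 0.86 to 1.70, edgeR adjusted p = 0.0155), or 4.35 ± 0.219 FPKM (the authors' fragment counts scaled to gene length and library size) in ERMAP shRNA libraries and 1.79 ± 0.419 FPKM in control libraries (mean ± SD, n = 3 each). Leaving out control replicate 1 gave 1.48 (adjusted p = 4.16e-08), whereas leaving out any other single library ended the call, with log2 fold changes of 1.17 to 1.31 and adjusted p from 0.0716 to 0.11.

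Samd9l encodes an interferon-induced antiviral protein that also restrains cell growth. The lower coordinates of Samd9l and Gm20559, both downstream ends, lie 39063 bases apart. The gap between the gene bodies is 26129 bases. Samd9l had 49.3, 59.8 and 45.4 CPM in the ERMAP shRNA libraries and 34.8, 23.8 and 21.8 CPM in the control libraries, with no overlap. The log2 fold change was 0.94 (SE 0.20, edgeR adjusted p = 0.0915), and Samd9l was not called over all genes. It was called without control replicate 1 (1.17, adjusted p = 1.62e-07) and in DESeq2 (0.95, adjusted p = 0.000584). In edgeR with no filter on low counts it was also called (0.95, adjusted p = 0.0049). Leaving out any other single library gave no call, with log2 fold changes of 0.82 to 1.03 and edgeR adjusted p from 0.236 to 0.415. Nor was it called in limma-voom (adjusted p = 0.0721) or limma-trend on FPKM (0.196 to 0.305). With a term for the replicate number the edgeR adjusted p was 0.172.

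Inside Gm20559 and just downstream of it, Gm43197 and Gm43196 carry the biotype TEC (transcribed loci that still need experimental support), which the biotype rule leaves out. They were chosen for mention after their values were seen. Gm43197 sits on the same strand inside Gm20559 and shares no base with its annotated exons. It had 127, 134 and 140 counts in the ERMAP shRNA libraries and 56, 51 and 41 counts in the control libraries, and rose by a log2 fold change of 1.52 (SE 0.19, edgeR adjusted p = 0.00616). Gm43196, downstream of Gm20559, had 18, 14 and 25 counts in the ERMAP shRNA libraries and 3, 6 and 3 counts in the control libraries (log2 fold change 2.31, SE 0.44, edgeR adjusted p = 0.0617). Vps50, a vesicle tethering gene beyond Samd9l, had overlapping groups at 60.3 ± 2.63 CPM in ERMAP shRNA libraries and 67.6 ± 18.4 CPM in control libraries (mean ± SD, n = 3 each). Its log2 fold change was -0.16 (SE 0.18, edgeR adjusted p = 0.938).

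**Figure D1:**
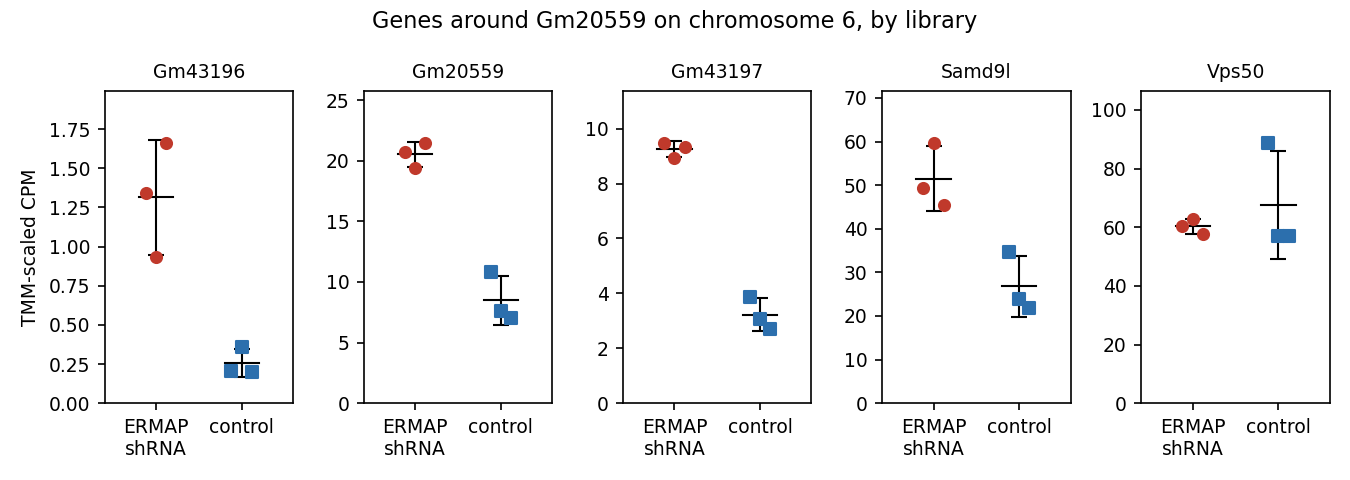
TMM-scaled CPM (y axis, each panel from 0) of Gm43196, Gm20559, Gm43197, Samd9l and Vps50 in the ERMAP shRNA libraries (red circles) and control libraries (blue squares), with mean and SD bars over 3 libraries. The groups are apart in the panels of Gm43196, Gm20559, Gm43197 and Samd9l and overlap in that of Vps50.

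Across all 190 lncRNA genes, 1 was called higher and 0 lower (edgeR quasi-likelihood test, adjusted p under 0.05). Over the 12491 genes tested, 1.01% were called higher and 0.136% lower. A share of 0.526% of the lncRNA genes was thus called either way, against 1.14% of all genes tested. At an unadjusted p under 0.05, 2 lncRNA genes were higher and 9 lower, where 3.71% of all genes tested were higher and 3.04% lower. DESeq2 called 1 higher and 3 lower, with 1.19% of all genes it tested called higher and 0.369% lower (1.56% either way). All 190 passed the filter on low counts, and 177 had at least 150 counts in each group, so that 4 reached the minimum through the ERMAP shRNA libraries and 9 through the control libraries. At the edge of the rule, Gm14321 had 299 counts, just under the minimum, and Gm10069 and Gm32856 had 300 counts. Their log2 fold changes were -0.06, 0.34 and -0.09. Among genes of these biotypes below the minimum, N4bp2os was called lower, with 3, 3 and 4 counts in the ERMAP shRNA libraries and 17, 18 and 16 counts in the control libraries.

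The differences were small for most of the set. In 167 of the 190 lncRNA genes (87.9%) the 95% interval of the log2 fold change lay within -1 and 1, compared with 82.6% of all genes tested and 95.3% of protein-coding genes with at least 300 counts. The median SE was 0.21 for the lncRNA genes and 0.16 for all genes tested. The median log2 fold change was -0.10 (interquartile range -0.22 to 0.03), and -0.01 over all genes tested, and 132 of the 190 had a negative value, against 51.7% of all genes tested. Without control replicate 1 the lncRNA median was -0.03 and 102 of the 190 were negative, and without control replicate 2 the median was -0.16. The median was -0.13 in lincRNA, -0.08 in processed_transcript, -0.07 in antisense and -0.17 in bidirectional_promoter_lncRNA genes.

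In CPM, the groups did not overlap in 25 lncRNA genes, of which 6 were higher and 19 lower in the ERMAP shRNA libraries. Among all genes tested, 7.74% did not overlap with higher and 6.47% with lower ERMAP shRNA values, while the lncRNA shares were 3.16% and 10%. The 190 genes together took 0.529%, 0.478% and 0.491% of the counts in the ERMAP shRNA libraries and 0.626%, 0.545% and 0.580% in the control libraries, with no overlap. Malat1 alone took 0.0989%, 0.0736% and 0.0796% in the ERMAP shRNA libraries and 0.165%, 0.110% and 0.138% in the control libraries. Without Malat1 the shares were 0.430%, 0.405% and 0.412% in the ERMAP shRNA libraries and 0.461%, 0.435% and 0.442% in the control libraries. The groups were still apart but closer, with 0.430% and 0.435% nearest to each other. The sums include genes that RefSeq lists as protein-coding, Ifi30 among them, and Gm26917, an entry known to collect ribosomal RNA reads. Whether the groups stay apart without such entries was not tested. The percentages are shares of RNA, in which fewer cells that express a gene and less RNA per cell cannot be told apart.

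**Figure D2:**
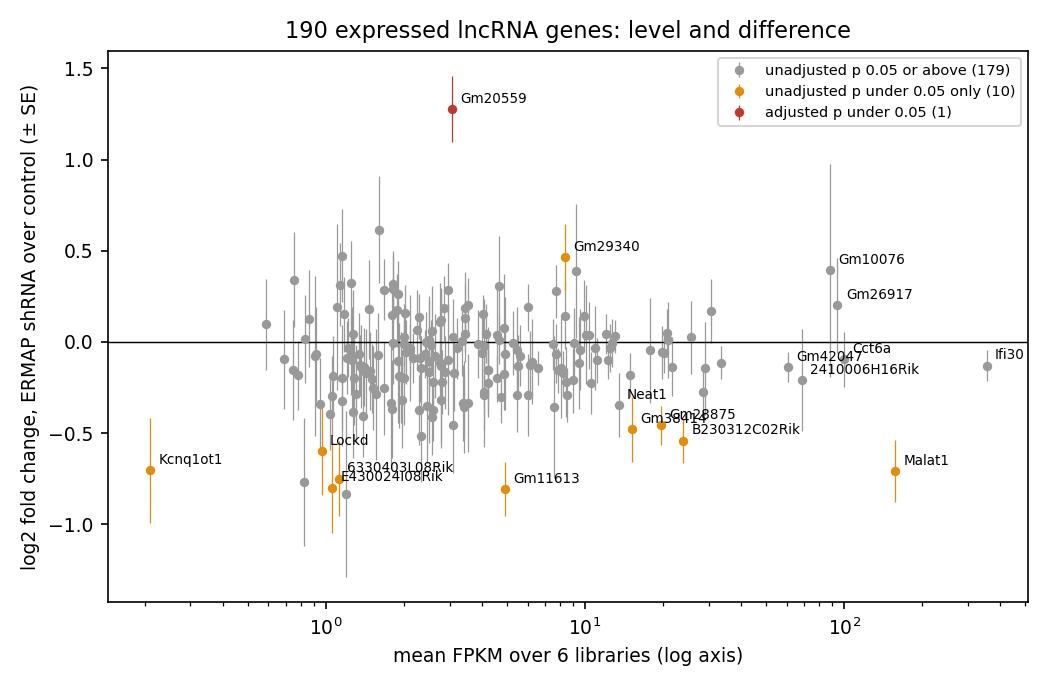
Each of the 190 lncRNA genes by its mean FPKM over the 6 libraries (x, log axis) and its log2 fold change of ERMAP shRNA over control with the SE (y). Gm20559 (red) lies at 1.28, and the 10 genes with an unadjusted p under 0.05 only (orange) are, apart from Gm29340, below 0.

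Control replicate 1 bore on many of these values. It held the highest CPM of the 6 libraries in 90 of the 190 lncRNA genes and the lowest in 31, whereas among all genes tested it was highest in 36.0% and lowest in 36.5%. Its difference from the other controls went down with the GC content of the longest GENCODE transcript (Pearson r = -0.66, Spearman rho = -0.65 across 189 lncRNA genes, which share the same libraries and are no replicates). The log2 fold change followed GC content with Pearson r = 0.25 and Spearman rho = 0.31, and with r = -0.24 and rho = -0.22 once control replicate 1 was left out. Without it, 2 lncRNA genes were called higher and 5 lower, where 2.67% of all genes tested were called higher and 2.19% lower (4.86% either way). The 2 were Gm20559 and AI504432 (0.73), and the 5 were B230312C02Rik (-0.64), Gm28875 (-0.44), Gm11613 (-0.75), Neat1 (-0.51) and 6330403L08Rik (-0.83). Leaving out any other single library gave 0 lncRNA calls in either direction.

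Malat1, the nuclear speckle RNA, had the highest summed count of the set. It lies on the minus strand at chr19:5795690-5802672. Its level was 994, 736 and 800.4 CPM in the ERMAP shRNA libraries and 1652, 1101 and 1378 CPM in the control libraries. The groups did not overlap, and the controls spread over a wider range. Its log2 fold change came to -0.71 (SE 0.17, with 95% bounds of -1.104 and -0.31), with an edgeR adjusted p = 0.179 over all genes and 0.00849 in DESeq2, and -0.56 without control replicate 1.

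Neat1, the scaffold RNA of paraspeckles, lies beside Malat1 on chromosome 19 at 5824708 to 5845478. It had 282, 210.0 and 252 CPM in the ERMAP shRNA libraries and 244, 369.6 and 333 CPM in the control libraries, and the low control value is that of replicate 1. The log2 fold change was -0.35 (SE 0.17, edgeR adjusted p = 0.851), against -0.51 (adjusted p = 0.0221) without that library. The other nuclear and architectural lncRNAs of the set had smaller differences, apart from Kcnq1ot1. Of 8 listed, 7 were in the table, 6 belonged to the set, 0 were called and all 6 had negative values with a median of -0.28. In the whole set, 132 of the 190 were negative. As 1.14% of all genes tested were called, 0 calls in this list or in the other short lists below say little about them. The other members were Tug1 at -0.21 (SE 0.18), Firre, an X-linked organiser of nuclear contacts, at -0.14 (SE 0.09) and 2900097C17Rik, the mouse Norad RNA that binds Pumilio proteins, at -0.11 (SE 0.09). Without control replicate 1 the value of Tug1 was 0.03.

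Most of the listed imprinted lncRNAs and those of X inactivation had no counts or fell under the minimum. Of 12 listed genes, 6 had no count in any library (Xist, Tsix, H19, Meg3, Rian and Mirg), and 3 belonged to the set. Kcnq1ot1, the antisense RNA that silences its imprinted cluster on the paternal chromosome, had 17.7, 17.5 and 9.78 CPM in the ERMAP shRNA libraries and 32.4, 17.8 and 23.0 CPM in the control libraries. The groups met within 1 CPM of each other without overlapping (log2 fold change -0.70, SE 0.29, edgeR adjusted p = 0.673), and the value was -0.45 without control replicate 1. Kcnq1, the coding gene that Kcnq1ot1 overlaps, had 0 counts in every library. Peg13 had a log2 fold change of 0.12 (SE 0.18) and Ftx -0.16 (SE 0.21), and 0 genes of the list passed the test. Airn and Jpx, with 261 and 259 counts, fell under the minimum.

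**Figure D3:**
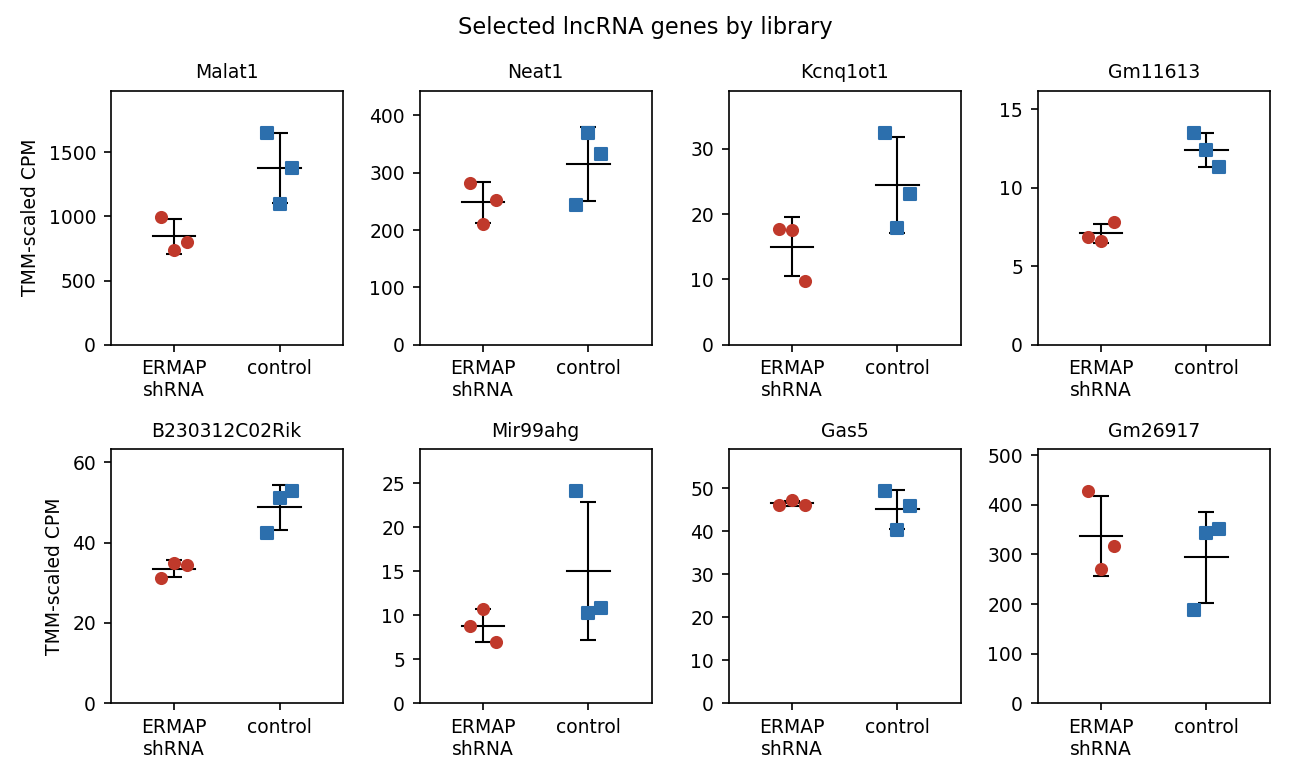
TMM-scaled CPM (y axis, each panel from 0) of 8 lncRNA genes in the ERMAP shRNA libraries (red circles) and control libraries (blue squares), with mean and SD bars over 3 libraries. Malat1, Kcnq1ot1, Gm11613 and B230312C02Rik have groups that do not overlap, while in Neat1, Mir99ahg, Gas5 and Gm26917 the groups overlap and control replicate 1, at the left of the controls, is the highest or lowest control.

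Besides Gm20559, Malat1 and Kcnq1ot1, 8 lncRNA genes had an unadjusted p under 0.05 and were named after their values were seen. Of these 8, Gm29340 alone had a positive log2 fold change. Gm11613, a processed_transcript on the minus strand at chr11:97644184-97660367, had 6.87, 6.59 and 7.79 CPM in the ERMAP shRNA libraries and 13.5, 12.4 and 11.3 CPM in the control libraries. The groups were well apart, and the gene missed the threshold narrowly in edgeR (log2 fold change -0.81, SE 0.15, adjusted p = 0.0548). It was called in DESeq2 (adjusted p = 0.00645) and without control replicate 1 (adjusted p = 0.00355). Epop, its nearest coding gene by lower coordinate, a partner of Polycomb complexes, had a log2 fold change of 0.40 (SE 0.23). Mllt6, on the opposite strand and 3047 bases upstream of Gm11613 by gene body, had 0.05.

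B230312C02Rik, a lincRNA on chromosome 2, had 31.2, 35.0 and 34.4 CPM in the ERMAP shRNA libraries and 42.5, 51.1 and 52.8 CPM in the control libraries. The log2 fold change was -0.54 (SE 0.12, edgeR adjusted p = 0.123), with adjusted p = 0.0253 in DESeq2 and 3.04e-05 without control replicate 1. Its nearest coding gene Gata5, a transcription factor gene, had 0 counts in every library. Gm28875 on chromosome 12 had 20.3, 19.4 and 19.6 CPM in the ERMAP shRNA libraries and 28.1, 27.3 and 25.9 CPM in the control libraries (log2 fold change -0.46, SE 0.11, edgeR adjusted p = 0.152). Both groups of Gm28875 were tight and apart, while its nearest coding gene Syne3, a nuclear envelope gene, had -0.07 (SE 0.12). The lower coordinates of Gm28875 and Syne3, both downstream ends, lie 4432 bases apart.

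6330403L08Rik is an antisense gene that overlaps Pdgfa, which encodes the A chain of platelet-derived growth factor. It had 4.48, 3.79 and 5.66 CPM in the ERMAP shRNA libraries and 6.99, 7.47 and 8.98 CPM in the control libraries (log2 fold change -0.75, SE 0.21, edgeR adjusted p = 0.266). Pdgfa itself had 9.19, 8.25 and 10.7 CPM in the ERMAP shRNA libraries and 14.8, 20.2 and 18.6 CPM in the control libraries (log2 fold change -0.93, SE 0.17, edgeR adjusted p = 0.0555). Both were lower in each ERMAP shRNA library than in any control library. Of the annotated exon bases of 6330403L08Rik, 14.7% lie inside coding-gene exons, and without a stated strand setting reads from that overlapping stretch cannot be assigned to one strand.

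Lockd, which lies downstream of the cell cycle inhibitor gene Cdkn1b, had a log2 fold change of -0.60 (SE 0.24), and Cdkn1b had -0.03 (SE 0.09). E430024I08Rik had -0.80 (SE 0.25). Its nearest coding gene was Ftl1-ps1 by start (35087 bases, log2 fold change -0.02) and Zfp825 by gene body (16625 bases, -0.30). Gm38414 had -0.48 (SE 0.18). Its nearest coding gene was Lonrf1 by start (60054 bases, -0.17) and Prag1 by gene body (8223 bases, 0.06). Gm29340 had 39.6, 31.2 and 42.1 CPM in the ERMAP shRNA libraries and 21.0, 29.6 and 31.2 CPM in the control libraries, with groups that overlapped only at their edge (log2 fold change 0.46, SE 0.18). Its nearest coding gene, Tmco5, did not pass the filter on low counts, with 25 counts over the 6 libraries. The edgeR adjusted p of Lockd, E430024I08Rik, Gm38414 and Gm29340 ran from 0.379 to 0.659.

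Taking all 190 lncRNA genes, the nearest coding gene by start passed the filter in 154 cases, which are 152 different genes. Of these 152, 1 was called (0.658%), while 1.26% of all protein-coding genes tested were called. The called neighbour was Znfx1, an interferon-induced helicase that senses viral RNA, with 145, 149 and 156 CPM in the ERMAP shRNA libraries and 84.9, 96.3 and 105.6 CPM in the control libraries (log2 fold change 0.65, SE 0.11, edgeR adjusted p = 0.0302). Of the 152 neighbours, 0 were on the list of interferon-stimulated genes drawn up to describe neighbours. That list holds neither Znfx1 nor Samd9l. Zfas1, the lncRNA that starts from the opposite strand at the 5′ end of Znfx1, had 34.2, 22.8 and 35.4 CPM in the ERMAP shRNA libraries and 23.2, 29.2 and 31.3 CPM in the control libraries. Its groups overlapped, and the log2 fold change was 0.14 (SE 0.20, edgeR adjusted p = 0.949).

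Log2 fold changes of lncRNA genes and their nearest coding genes had the same sign in 89 of 154 cases (Pearson r = 0.26, Spearman rho = 0.16 across genes of the same libraries). The median distance between starts was 16508 bases. By the gap between gene bodies, 83 lncRNA genes overlapped a coding gene and 147 lay within 10 kb of one, the nearest gene was the same as by start for 141 of 190, and again 1 neighbour was called, Znfx1. In 124 of the 189 lncRNA genes found in GENCODE, no exon base lay in an exon of a coding gene, and these had a median log2 fold change of -0.11, against -0.08 in the 65 that shared bases.

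**Figure D4:**
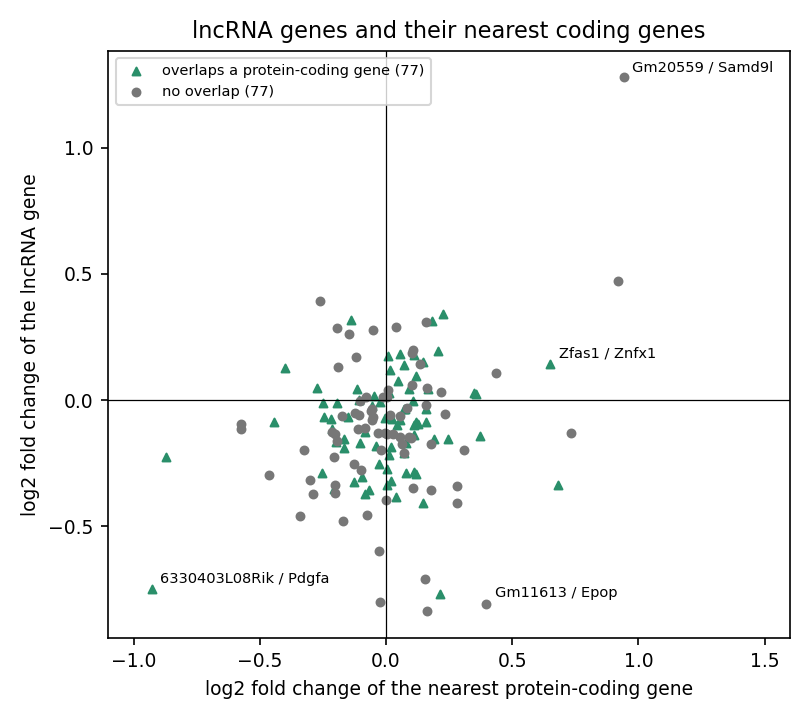
Log2 fold change of ERMAP shRNA over control of 154 lncRNA genes (y) against that of their nearest protein-coding gene by start (x), with triangles for lncRNA genes that overlap a coding gene body. The x axis does not reach every point. The gene 4632415L05Rik (0.19), whose nearest coding gene Cp had 2.06 (edgeR adjusted p = 0.26), lies beyond its right edge. Gm20559 with Samd9l lies at the upper right and 6330403L08Rik with Pdgfa at the lower left, while 138 of the 154 points lie within 0.5 of 0 on both axes.

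Hosts of small nucleolar RNAs, which guide the modification of ribosomal RNA, had log2 fold changes from -0.17 (Snhg20) to 0.20 (Snhg12) in the set. Of 21 listed, 18 were in the table with an lncRNA biotype, 12 belonged to the set and 16 were tested. Of these 16, 0 were called, where 1.14% of all genes tested were called. An unadjusted p under 0.05 was found in 0 of the 16, where 3.71% of all genes tested were higher and 3.04% lower. Some 95% intervals were wide, such as -0.71 to 0.62 in Epb41l4aos. The median log2 fold change of the 12 was 0.04, and 5 were negative. Gas5 had 46.1, 47.2 and 46.2 CPM in the ERMAP shRNA libraries and 49.3, 40.3 and 45.8 CPM in the control libraries, within each other's spread (log2 fold change 0.04, SE 0.11, 95% interval -0.21 to 0.29). Snhg1 had -0.10 (SE 0.12), Snhg12 0.20 (SE 0.15) and Snhg17 0.15 (SE 0.11), the last with groups that did not overlap.

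Hosts of microRNAs were 12 on the list, of which 5 belonged to the set, 0 were called and 5 were negative, as were 132 of the 190 lncRNA genes. By coordinates, 7 genes of the set contained 29 mature microRNAs on their own strand. The sequences of 7 of these microRNAs in 3 hosts show what the transcripts carry, from RefSeq, with the seed (bases 2 to 8) in capitals. The first 3 lie in Mir99ahg on chromosome 16, the next pair in Mir17hg and the last pair in Dleu2, both on chromosome 14.
mmu-miR-99a-5p: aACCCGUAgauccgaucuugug
mmu-let-7c-5p: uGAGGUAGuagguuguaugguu
mmu-miR-125b-5p: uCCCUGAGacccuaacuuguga
mmu-miR-17-5p: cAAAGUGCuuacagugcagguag
mmu-miR-20a-5p: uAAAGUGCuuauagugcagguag
mmu-miR-15a-5p: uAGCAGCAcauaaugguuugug
mmu-miR-16-5p: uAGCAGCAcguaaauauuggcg
The pairs within Mir17hg and within Dleu2 each share a seed, and the microRNAs of Mir99ahg have 3 different seeds. Mature microRNAs were not measured here, only the host transcripts.

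Mir99ahg had 8.82, 10.6 and 6.99 CPM in the ERMAP shRNA libraries and 24.1, 10.2 and 10.8 CPM in the control libraries (log2 fold change -0.77, SE 0.35, edgeR adjusted p = 0.777). Dleu2 had 19.8, 18.5 and 15.6 CPM in the ERMAP shRNA libraries and 37.8, 15.5 and 14.8 CPM in the control libraries (log2 fold change -0.34, SE 0.35). Mir17hg had 14.3, 12.7 and 12.04 CPM in the ERMAP shRNA libraries and 23.9, 10.5 and 13.5 CPM in the control libraries (log2 fold change -0.29, SE 0.29). In all 3 hosts the high control value was that of replicate 1, and the other controls lay beside the ERMAP shRNA libraries. Without that library the values were -0.26 for Mir99ahg, 0.24 for Dleu2 and 0.11 for Mir17hg. Mir22hg, the host of miR-22, had -0.01 (SE 0.19, 95% interval -0.44 to 0.42), and 0.05 without control replicate 1. Ftx had -0.16 (SE 0.21), and 0.09 without that library.

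LncRNAs known from mouse macrophages and immune cells were low or did not pass the test. Of 15 listed, 14 had an lncRNA biotype in the table, 4 of these had no count, 8 were tested and 0 were called. AW112010, Mirt1, Mirt2 and Gm16685 were the 4 with no count. Ptgs2os2, the lincRNA-Cox2 of activated macrophages, had 3.14, 5.66 and 5.12 CPM in the ERMAP shRNA libraries and 8.71, 3.49 and 3.17 CPM in the control libraries (log2 fold change -0.13, SE 0.42), and 0.48 without control replicate 1. Its neighbour Ptgs2, the inducible cyclooxygenase gene, had 0.73 (edgeR adjusted p = 0.846). Ttc39aos1, the lincRNA-EPS that restrains inflammatory genes, had -0.13 (SE 0.18), and Pvt1, beside Myc, had -0.34 (SE 0.25). Of 5 lncRNAs linked to p53, 3 belonged to the set and 0 were called. In the set, 2 of the 3 were negative (Neat1 and Pvt1), and Gas5 had 0.04. The other 2 listed genes fell below the minimum and went opposite ways. Lncpint, with 241 counts, had -0.82 (edgeR unadjusted p = 0.00602), and Trp53cor1, with 114 counts, had 0.54 (edgeR unadjusted p = 0.0854).

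**Figure D5:**
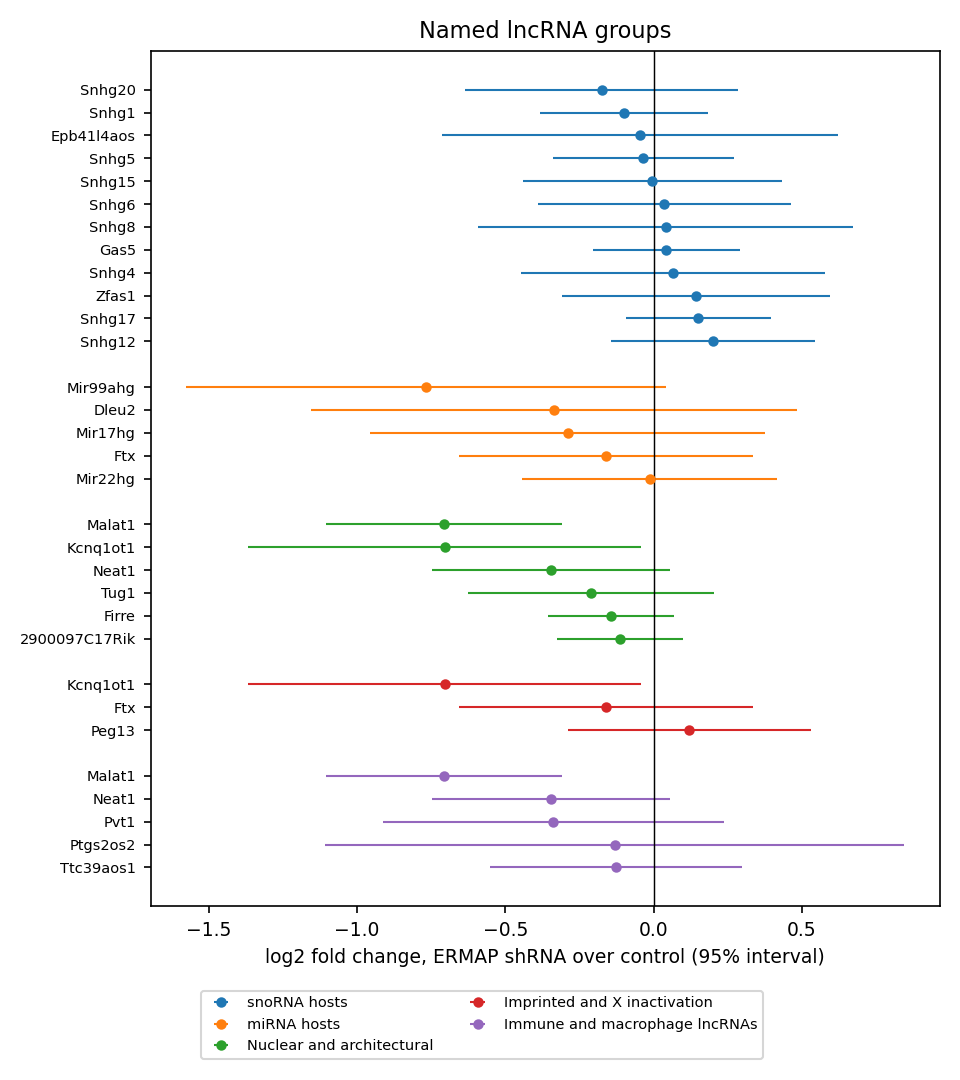
Log2 fold change of ERMAP shRNA over control (x, point with 95% interval from edgeR) for the members of 5 named groups of lncRNA genes. In Malat1 and Kcnq1ot1 the interval lies below 0, and every other interval drawn includes 0.

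The most abundant entries of the set include genes that are not lncRNAs elsewhere. By symbol, RefSeq lists 125 of the 190 as lncRNA and 10 as protein-coding, 53 had no match, 1 was a pseudogene and 1 a transcribed pseudogene. Ifi30, the lysosomal thiol reductase that prepares antigens, carries the biotype processed_transcript in the table and has the highest mean level (354 FPKM). It had 326, 350 and 329 CPM in the ERMAP shRNA libraries and 366, 375 and 357 CPM in the control libraries, apart by a narrow margin (log2 fold change -0.13, SE 0.08, edgeR adjusted p = 0.929). Cct6a, a chaperonin subunit gene at 99.4 FPKM, had -0.10 (SE 0.15). Without the 10 genes the count stayed at 1 higher and 0 lower of 180, with a median of -0.10.

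Of the other most abundant entries, Gm42047 at 60.7 FPKM had 325, 325 and 337 CPM in the ERMAP shRNA libraries and 373, 346 and 367 CPM in the control libraries, apart by a narrow margin (log2 fold change -0.14, SE 0.08). 2410006H16Rik at 68.7 FPKM had -0.21 (SE 0.28), Gm43351 at 30.7 FPKM 0.17 (SE 0.18) and Gm20005 at 29.1 FPKM -0.14 (SE 0.25). Gm10076, a gene of 384 bases, varied most: 76.3, 23.4 and 16.8 CPM in the ERMAP shRNA libraries and 17.2, 46.7 and 24.4 CPM in the control libraries (log2 fold change 0.39, SE 0.58), and -0.55 without ERMAP shRNA replicate 1. Gm26917, an entry known to collect ribosomal RNA reads, had 427, 270.1 and 316 CPM in the ERMAP shRNA libraries and 187, 342 and 352 CPM in the control libraries, with overlapping groups and control replicate 1 lowest (log2 fold change 0.20, SE 0.26). The 2 further entries of that kind on the list had no count. Of the 190 genes, 33 exceeded 10 FPKM and 13 lay under 1 FPKM, and the median was 2.92 FPKM, against 7.29 FPKM over all genes tested.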

How the data were processed

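RNA of 6 RAW264.7 libraries was sequenced, with library preparation by a NEBNext Ultra RNA kit according to the labels' protocols. The authors deposited raw read counts per gene, and FPKM per library and per group. HISAT2 and mm10 are named in the submitters' processing notes. No version, counting program, strand setting or annotation release is named there. Column names give the group and a number, which is the replicate number used here, and no column could be assigned to a particular sample.

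Counts of all 54532 genes were tested with edgeR 4.0.16 (quasi-likelihood, TMM, filterByExpr with a minimum count of 10, robust, group as the only term; limma 3.58.1, R 4.3.3) with Benjamini-Hochberg adjustment over 12491 genes and a threshold of 0.05. SE is the log2 fold change divided by the root of F, and intervals are 95%. The procedure was tested on simulated data, which held no outlying library such as control replicate 1. Alternatives were DESeq2 1.42.0, limma-voom, limma-trend on FPKM with a pseudocount of 1 or 0.1 on the log2 scale, other scaling factors, other filters, leaving out each library in turn, and a term for the replicate number. Summed counts of 13447021 to 16602734 per library limit the precision of low genes. Libraries of the same group differed by more than sampling noise (chi-square per degree of freedom 3.35 to 68.8).

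The members and lists were chosen with earlier results of these data known. Named are called members and their nearest coding gene, the 10 with the highest mean FPKM, and of each list the called members or up to 4 by FPKM, a few of which are covered by counts only. Other genes were named after their values were seen. The nearest coding gene of 1 member is not reported here. Coordinates of 187 of the 190 members equal those of GENCODE vM21.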

Additional observations from a re-analysis of the deposited data

How the results depend on the processing

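The set without exon overlap and the set without genes that RefSeq lists as protein-coding were added as alternatives after the data were seen, and both kept 1 lncRNA gene higher and 0 lower, as did a minimum of 150 or 600 summed counts. Leaving out 1 library gave 0 to 2 lncRNA genes higher, 0 to 5 lower, 0 to 2 called genes among the nearest coding genes of called lncRNA genes (0 with all libraries), and 73 to 342 of all genes higher and 3 to 280 lower. The highest values are those without control replicate 1. DESeq2 gave 3 lncRNA genes lower, 1 such nearest coding gene (Samd9l) and 58 of all genes lower, and no filter on low counts 2, 1 and 32. With limma-trend on log2(FPKM + 1) without a filter 0 lncRNA genes were higher, and 81 of all genes were higher and 5 lower. On log2(FPKM + 1) and log2(FPKM + 0.1) with a filter, 11 of all genes were lower. An adjusted p under 0.01 gave 0 lncRNA genes higher, and 82 of all genes higher and 3 lower, fewer by construction. The other causes were not tested. Ermap kept a positive value in each alternative that tested it (0.10 to 1.12 on the log2 scale).

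Same-numbered libraries of the groups had correlations of -0.16, -0.33 and 0.23 in their deviations from the group means. Of the ERMAP shRNA libraries, only replicate 3 correlated best with the control of its own number. For replicates 1 and 2 that control gave the lowest correlation. With so few libraries per group and control replicate 1 apart, these correlations cannot decide whether the numbers pair the libraries. With the replicate block, Gm20559 had 1.30 (edgeR adjusted p = 0.0585), and 0 lncRNA genes, 81 of all genes higher and 3 lower were called. Of 35 genes followed through the alternatives, Gm20559 alone was called in edgeR with all libraries. It kept its direction in each alternative and lost the call in 7. Of the 560 values of the 35 genes under alternatives, 13 gained a call, and 30 of the values without a call changed sign. In 23 of the 190 lncRNA genes the interval of the log2 fold change reached past -1 or 1, Malat1 among them, and how much of that width comes from depth was not tested.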
